A study of Tupaia belangeri with 2 samples.

Results

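BCAN, VCAM1, SLC7A10, SPON1, SLC39A12, CP and SULF1 are 7 genes, of 18543 gene names in the annotation, that were chosen because earlier work on these cells found them high in a small group of glia-like cells of the embryonic tree shrew brain. Each name is borne by 1 gene model (evm.model.chr8.836, evm.model.chr8.1219, evm.model.chr22.550, evm.model.chr18.34, evm.model.chr2.155, evm.model.chr25.217 and evm.model.chr14.481, in that order), and all 7 were detected in both embryos. The values that chose the genes are the levels described here, so these levels, folds and shares are descriptions and no test was run on them. The tree shrew (Tupaia belangeri) is a small mammal that serves as a close outgroup of primates. The whole brains of 2 embryos at 4 to 5 weeks after conception, n = 1 droplet library each, were stripped of dura mater and vessels and dissociated with papain. The labels give no strain, sex, allele or agent, and there is no second condition.

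The genes belong to different pathways. BCAN encodes brevican, a chondroitin sulphate proteoglycan that binds hyaluronan in the brain's extracellular matrix. VCAM1 encodes an immunoglobulin-family adhesion molecule that binds integrins and is best known from activated endothelium. SLC7A10 encodes Asc-1, a transporter of small neutral amino acids that include glycine and D-serine. SPON1 encodes F-spondin, a matrix protein of the embryonic floor plate that binds the amyloid precursor protein. SLC39A12 encodes the zinc importer ZIP12. CP encodes ceruloplasmin, a copper-containing ferroxidase that in the brain is anchored to astrocyte membranes. SULF1 encodes an extracellular sulphatase that removes sulphate groups from heparan sulphate. Astrocytes arise from radial glia, the elongated progenitors that line the ventricles, after most neurons have been born, and radial glia and astrocytes share many transcripts.

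Transcripts were counted by unique molecular identifiers (UMIs), tags by which copies of 1 captured transcript are counted once. Embryo 1 had 41868023 UMIs and embryo 2 had 38077767. The 17735 cells with at least 200 genes had median counts of 3539 and 3169 UMIs. Haemoglobin transcripts took 28.7% and 13.6% of the UMIs of all 18926 barcodes, including those left out. Leiden clustering without the 7 genes and the related lists among the variable genes gave 16 clusters. A cluster was named, as in erythroid-like, after the cell type with the most listed markers in it. Levels are UMIs of a gene per 1000000 UMIs summed over the cells of a cluster and embryo (CPM). Since a library is 1 embryo, errors are the SD of n = 2 embryos or exact 95% Poisson intervals, which cover counting error only. CPM values of different genes were not scaled by transcript length because the 3′ kit counts transcript ends. A barcode sequence was shared by both libraries in 18 cases, none of them in cluster 10.

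The cells at issue were those of cluster 10, which had the most astrocyte markers of the 16 clusters. It held 463 cells, 222 of embryo 1 and 241 of embryo 2, or 2.61% of all cells. Of the 22 astrocyte markers listed, 20 had a gene model and 7 met the rule in cluster 10, which asks for a UMI in 10% or more of the cells of a cluster and a level of 2 times or more that of the remaining cells. These were NFIA, SOX9, SPARCL1, GJA1, NDRG2, FGFR3 and EDNRB. By the same rule 9 radial glia markers counted for it, so its name is radial glia-like. The genes that define mature astrocytes were close to absent. AQP4, the water channel of astrocyte endfeet, had 12 UMIs in all cells, 6 of them in cluster 10, and GFAP, the glial intermediate filament, had 28, of which 18 were in cluster 10. HEPACAM, a glial adhesion molecule, had 9, of which 8 were there. ALDH1L1, a folate enzyme used as an astrocyte marker, had 102 UMIs, of which 16 were in cluster 10. What was detected of GFAP and HEPACAM thus lay mostly in cluster 10, at low levels. Because of these low levels the cells are not named astrocytes, and they are called cluster 10 or the astrocyte-marker cluster here. Markers of other cell types were unevenly present in cluster 10. Of the 11 endothelial markers with a model, 7 were at 0, among them PECAM1, CDH5 and FLT1, and the 11 together stood at 25.5 and 17.5 CPM. Of the 6 microglia markers, CSF1R, AIF1, CX3CR1 and LY86 were at 0. The erythroid markers summed to 8711 CPM in embryo 1 and 1583 CPM in embryo 2. Above the other cells in both embryos were the summed markers of ependymal cells (69.5 and 94.1 CPM against 12.9 and 21.9), oligodendrocyte progenitors (31.3 and 35.0 against 3.71 and 3.12) and roof plate or cortical hem (26.4 and 14.2 against 1.16 and 1.10). Floor plate markers stood at 199 and 234 CPM against 148 and 211. Markers of dividing cells (468 and 444 against 3847 and 3346 CPM) and of neurons in general (572 and 620 against 1375 and 1960 CPM) were lower than in the other cells but well above 0. The part of these transcripts in the levels below was not tested.

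Cluster 10 held more than 50% of all UMIs of each of the 7 genes on the mean of the embryos. BCAN was the most confined, with 75% of its UMIs in cluster 10 in embryo 1 and 80.0% in embryo 2 (mean 77.5% ± 3.54, SD, n = 2). VCAM1 followed with 68.5% ± 3.64, then SPON1 with 60.8% ± 1.24, SULF1 with 58.6% ± 1.29, SLC7A10 with 57.8% ± 2.74, SLC39A12 with 56.5% ± 1.40 and CP with 52.3% ± 5.50. CP was the only 1 of the 7 with less than 50% in an embryo, at 48.4% in embryo 2.

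**Figure D1:**
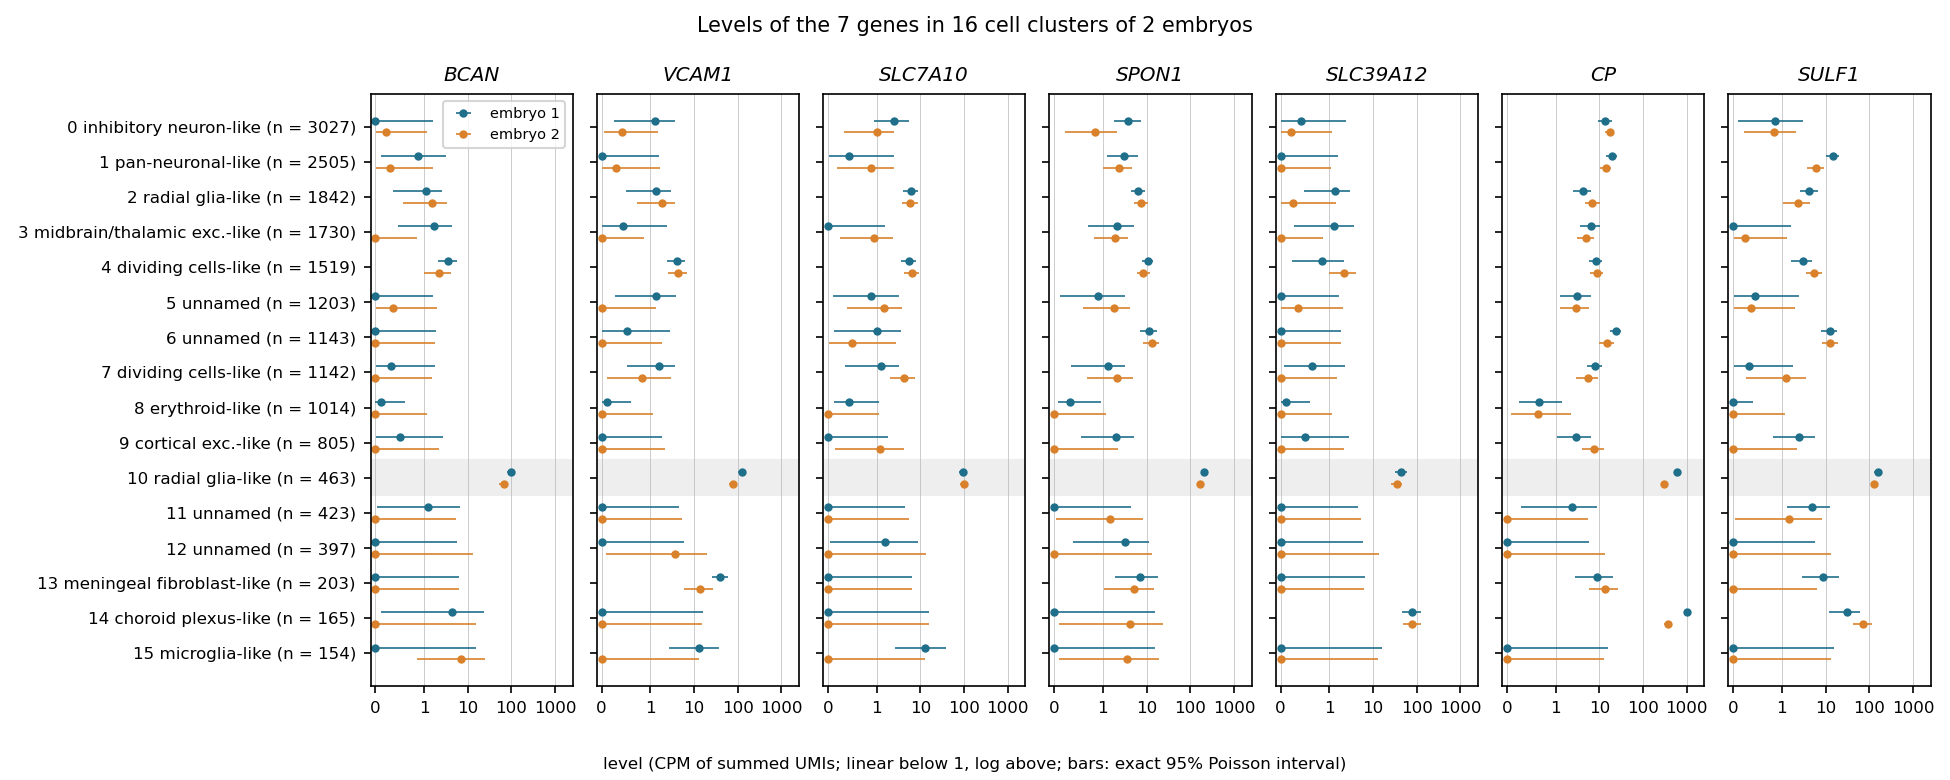
Levels of the 7 genes (x axis, CPM, linear below 1 and logarithmic above) in the 16 clusters (y axis, with the number of cells), with a point per embryo and an exact 95% Poisson interval. In the shaded cluster 10 the 7 genes lie between 35.0 and 608 CPM, and SLC39A12, CP and SULF1 are also high in cluster 14.

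The matrix and adhesion genes came first in cluster 10 in both embryos. BCAN stood at 97.0 CPM in embryo 1 (interval 78.8 to 118) and 66.6 CPM in embryo 2 (52.8 to 82.9), a mean of 81.8 ± 21.5. Its next highest cluster, the 154 microglia-like cells of cluster 15, had 0 UMIs in embryo 1 and 2 in embryo 2, so the order below cluster 10 rests on very few transcripts. The dividing cells of cluster 4, which also have 6 radial glia markers, had 17 and 9 BCAN UMIs and stood at 2.88 ± 1.01 CPM. The intervals of cluster 10 overlapped those of no other cluster in either embryo.

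VCAM1 stood at 123 CPM in embryo 1 and 79.9 CPM in embryo 2 in cluster 10, a mean of 102 ± 30.8. The second cluster was 13, named meningeal fibroblast-like, with 40.1 and 13.7 CPM. Intervals of the 2 clusters did not overlap within either embryo. Because VCAM1 is known from endothelium, cluster 13 was split further, a step chosen after its clusters had been seen. The fibroblast part 13a, led by PTGDS, SLC22A6 and CLU, held 29 of its 31 VCAM1 UMIs, with 68.6 CPM in embryo 1 and 22.6 CPM in embryo 2. The endothelial part 13b had all 11 endothelial markers, counted against the rest of cluster 13, and held 2 VCAM1 UMIs over 59 cells. VCAM1 was thus detected in the glia-like and fibroblast-like cells and was at 0 UMIs in embryo 1 and 2 UMIs in embryo 2 in the endothelial-like ones.

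SPON1 was the most abundant of these matrix genes in cluster 10 by UMI count, with 211 UMIs in embryo 1 and 203 in embryo 2 (207 and 169 CPM). Its second cluster was the neuronal cluster 6, whose markers fit more than 1 type and which stayed unnamed, with 11.3 and 12.9 CPM. Cluster 4 and the radial glia-like cluster 2 followed with 9.51 ± 1.51 and 6.98 ± 0.741 CPM. The intervals of clusters 6 and 4 overlapped in both embryos, so their order was not resolved at this depth.

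SULF1 stood at 154 CPM in embryo 1 and 129.9 CPM in embryo 2 in cluster 10. Cluster 14, named choroid plexus-like by 3 markers and led by TTR, C2ORF40, FOLR1, F183A and RSPH1, came second with 30.1 and 71.2 CPM. Cluster 14 rests on 165 cells with a median of 1479 UMIs, and its SULF1 levels rest on 7 and 17 UMIs. The intervals of the 2 clusters did not overlap in embryo 1 (131 to 179.8 against 12.1 to 62.0) and did in embryo 2 (110.3 to 152 against 41.5 to 114). Of the SULF1 UMIs of cluster 14, 83.3% lay in its smaller part 14b, described below with CP. Low levels were seen in neuronal clusters 6 (12.6 ± 0.445 CPM) and 1 (10.3 ± 5.88 CPM).

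The transporters split into different patterns. SLC7A10 was the steadiest between the embryos, with 94.04 and 97.4 CPM in cluster 10, a mean of 95.7 ± 2.37. Below cluster 10 its levels were low in the clusters with radial glia markers. They were 5.98 ± 0.0419 CPM in cluster 2 (27 and 23 UMIs) and 6.004 ± 0.714 CPM in cluster 4 (26 and 27 UMIs). Erythroid-like cells had 4 and 0 UMIs of it, or 3.73 and 0 CPM with haemoglobin left out of the totals. SLC7A10 had 0 UMIs in cluster 14 in both embryos, which allows up to 12.9 and 12.6 CPM.

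SLC39A12 came first in cluster 14, not in cluster 10. The choroid plexus-like cells stood at 77.4 and 79.6 CPM (18 and 19 UMIs), a mean of 78.5 ± 1.57, and cluster 10 at 44.1 and 35.0 CPM (45 and 42 UMIs). The intervals of the 2 clusters overlapped in embryo 1 (45.9 to 122 against 32.1 to 59.0) and not in embryo 2 (47.9 to 124 against 25.2 to 47.3). In the other 14 clusters the mean of the embryos did not exceed 1.51 CPM. This order depended on the cell filter. With at least 500 or 1000 genes per cell, 87 of 89 and 26 of 34 cells left of cluster 14 joined the astrocyte-marker cluster, and all 7 genes were then highest there.

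CP was the most abundant of the 7 and the most uneven. In cluster 14 it reached 1023 CPM (embryo 1) and 377 CPM (embryo 2), and in cluster 10 it reached 608 and 296 CPM. Cluster 14 was split too, a step chosen after its values had been seen. Its part 14b had 34 cells with a median of 6703 UMIs, and CXORF22, IRAK1BP1, DNAH5 and ASPM among its leading genes. It had 9 markers of dividing cells, counted against the rest of cluster 14. This part held 91.2% of the CP UMIs and 70.3% of the SLC39A12 UMIs of cluster 14. CP stood at 2578 and 452 CPM in 14b against 42.1 and 255 CPM in the 131 cells of 14a, whose median was 1144 UMIs. SLC39A12 stood at 133 and 94.4 CPM in 14b (12 and 14 UMIs) against 42.1 and 55.3 CPM in 14a (6 and 5 UMIs). TTR, the thyroid hormone carrier that marks choroid plexus, was as high in 14a, at 100911 and 118976 CPM, as in 14b, at 100877 and 131891 CPM. CP was also the gene with the widest low-level presence. Neuronal clusters 0, 1 and 6 had 15.5 ± 2.62, 16.8 ± 3.503 and 19.5 ± 6.48 CPM, above radial glia-like cluster 2 at 5.61 ± 1.95 CPM. In erythroid-like cells, which should lack it, CP had 6 and 2 UMIs and stood at 0.654 and 0.631 CPM. Haemoglobin took 88.2% of the UMIs of those cells, and with it left out of the totals CP stood there at 5.59 and 5.24 CPM, beside 4.25 and 6.997 CPM in cluster 2. CP in cluster 2 was therefore not told apart from this background, which itself rests on few UMIs.

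The UMIs of CP sat in few cells. In cluster 10, 977 CP UMIs came from 82 cells, and a single cell of embryo 1 held 368 of them, or 37.7%. The 5 cells with the most CP UMIs held 61.9%. That cell had 20992 UMIs and 3802 genes, and it held 27 UMIs of SULF1, 9 of SPON1 and 0 of TTR. Without it cluster 10 stood at 253 CPM in embryo 1 beside 296 CPM in embryo 2, from which no cell was left out. In embryo 2 a single cell held 60 of 356 CP UMIs, so the order of the embryos is not settled by leaving out 1 cell. In cluster 14 a single cell held 177 of 328 UMIs, with 3947 UMIs of TTR, and without it embryo 1 stood at 281 CPM beside 377 CPM. That cell lay in 14b, where CP stood at 739 CPM and SLC39A12 at 67.2 CPM in embryo 1 without it. For each of the other 6 genes in cluster 10, the cell with the most UMIs held between 4.83% and 8.63% of them. The median over the cells with a UMI was 1 or 2 for all 7 genes, so CP differs from the rest in its few high cells and not in its typical cell.

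**Figure D2:**
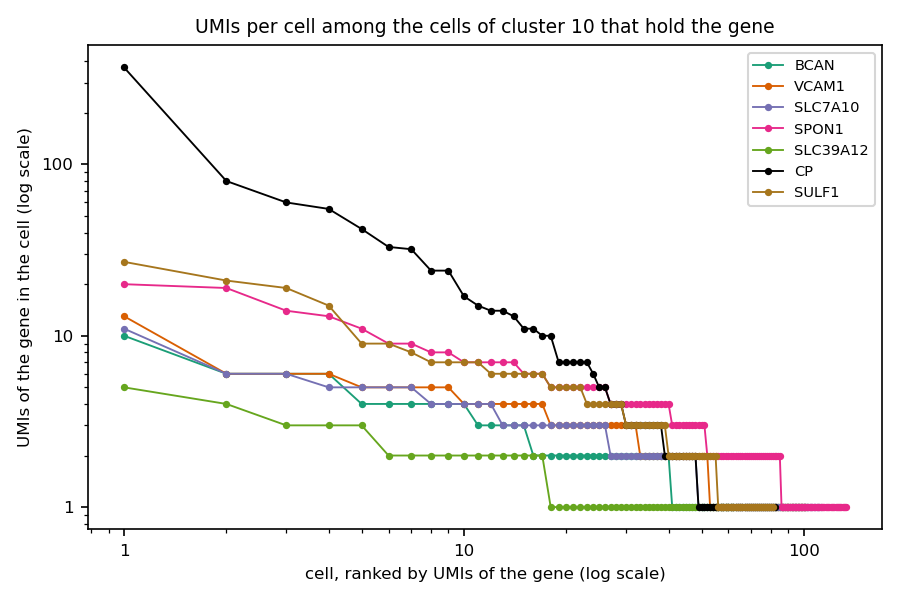
UMIs of each gene in a cell (y axis, logarithmic) for the cells of cluster 10 that hold the gene, ranked from most to fewest (x axis, logarithmic). CP runs from 368 UMIs in the first cell to 80 in the second, while SULF1 starts at 27 and SLC39A12 at 5.

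Shares of cells were compared after each cell was thinned to 2000 UMIs, which left 187 and 224 cells of cluster 10 and dropped 3934 of the 17735 cells. At that depth 51.3% of the cells of embryo 1 (exact binomial interval 43.9 to 58.7) and 45.5% of embryo 2 (38.9 to 52.3) held a UMI of at least 1 of the 7 genes, against 59.0% and 60.2% unthinned. Erythroid-like cells gave a background of 0.398% and 0%, the latter allowing up to 1.33%, with a median of 12896 UMIs per cell before thinning. Because most of their UMIs are haemoglobin, few of the 2000 were of other genes, and this background is a low estimate. Unthinned it was 1.28% and 0.429%, beside 7.94% and 8.26% in cluster 2. The radial glia-like cells of cluster 2 had 3.90% and 3.88%, and cluster 4 had 4.79% and 4.55%, far below cluster 10. The 66 cells of cluster 14 that were deep enough had 26.7% and 47.2%, with wide intervals that overlapped those of cluster 10. By gene, SPON1 was found in the most thinned cells of cluster 10 (20.2% ± 3.95), and SLC39A12 in the fewest (6.73% ± 2.58). Erythroid-like cells had at most 0.266% for any single gene.

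**Figure D3:**
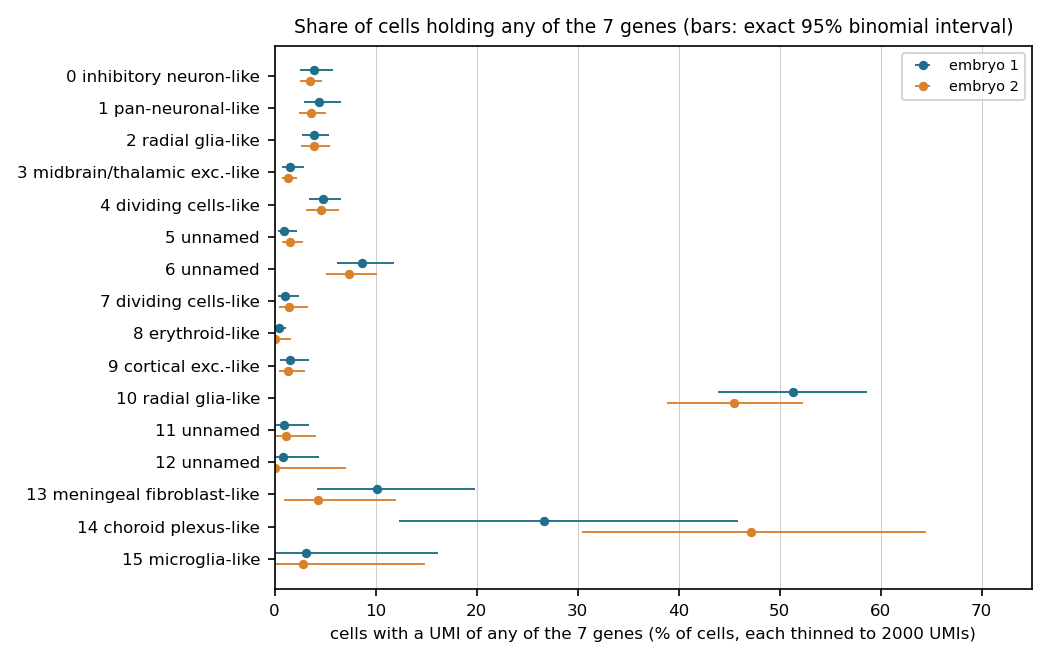
Share of cells with a UMI of any of the 7 genes (x axis, percent of cells thinned to 2000 UMIs) by cluster (y axis), with a point per embryo and its exact 95% binomial interval. Cluster 10 is at 51.3% and 45.5% and cluster 14 at 26.7% and 47.2%. Below them, cluster 13 is at 10.1% and 4.29% and the neuronal cluster 6 at 8.69% and 7.33%.

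Cells of cluster 10 that held one of the genes often held another, while the pairs with CP differed between the embryos. Among thinned cells of cluster 10, the number of cells holding both genes of a pair was set against the number expected if the shares of the pair were independent, summed over the embryos. The 15 pairs without CP had a median ratio of 2.10 (0.583 to 2.69). VCAM1 and SPON1 were together in 28 cells against 12.3 expected, and SPON1 and SULF1 in 28 against 10.4. The 6 pairs with CP had a median of 0.752 in this sum, but the embryos differed. In embryos 1 and 2 the ratio was 0.289 and 1.41 with BCAN, 0.472 and 1.19 with VCAM1, and 1.09 and 1.44 with SPON1. With SLC7A10 it was 0 and 0.632, with SLC39A12 0.974 and 0, and with SULF1 1.62 and 3.14. SLC7A10 and CP were together in 3 cells against 7.45 expected, whereas CP and SULF1 were together in 16 against 6.58. Counts this small carry wide counting error, and the ratios are descriptive. Without thinning, 139 cells of the 2 brains held 3 or more of the 7 genes, of which 111 were in cluster 10, 13 in cluster 4, 7 in cluster 14 and 4 in cluster 2. The 111 cells were deeper than others of cluster 10, with a median of 4745 UMIs against 3790 in the cells that held none of the genes.

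Cluster 10 itself was not uniform. Clustered again on its own, without the 7 genes and lists, it split into 10a (219 cells, with DIRAS3, LIMA1, DLK1 and CDKN1C among its leading genes), 10b (125 cells, led by an unnamed model, C1ORF187, ZIC2, CRYGB and ZIC4, with 5 markers of dividing cells) and 10c (119 cells, led by CRISPLD1, SLC1A3, S6A11, TNC and ITPR2). The split was chosen after the clusters had been seen. Markers and leading genes of a sub-cluster were counted against the rest of its own cluster, not against all other cells. In 10b MKI67 (175 and 205 CPM) and TOP2A (264 and 255) were below all cells outside cluster 10 (718 and 670, 1166 and 907). On the mean of the embryos PCNA, MCM2 and MCM5 went the other way (26.8, 7.80 and 47.2 CPM against 18.6, 6.33 and 25.0). Of the 3 sub-clusters, 10c had the most astrocyte markers by this count, 10 in number, among them GFAP, S100B, GJA1, SLC4A4 and EDNRB. By the same count 10a and 10b had 0, which does not mean that these transcripts were absent there. EDNRB, the endothelin receptor of glial precursors, stood at 325 CPM in 10c, 121 in 10a and 24.5 in 10b, against 12.8 in all cells outside cluster 10. SPARCL1 stood at 659, 501 and 368 CPM in 10c, 10a and 10b, against 45.2 outside. APOE and GLUL were lower in 10a and 10b than outside cluster 10. Median depths were 4198, 3946 and 3924 UMIs.

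All 7 genes were highest in 10c in both embryos, CP in embryo 1 only through a single cell. In embryo 2 the CP intervals of 10c (377 to 541 CPM) and 10b (328 to 474 CPM) overlapped. VCAM1 stood at 355 and 291 CPM in 10c, 40.4 and 23.7 CPM in 10a, and 0 and 6.71 CPM in 10b. SPON1 stood at 502 and 553 CPM in 10c against 134.8 and 72.8 in 10a and 11.9 and 23.5 in 10b. BCAN had 217 and 184 CPM in 10c, 83.6 and 47.5 in 10a, and 0 UMIs in 10b in both embryos. SLC7A10 had 239.9 and 265 CPM in 10c, against 51.2 and 68.0 in 10a. SULF1 had 399.8 and 394 CPM in 10c, 80.9 and 52.2 in 10a, and 5.93 and 53.7 in 10b. SLC39A12 had 118 and 114 CPM in 10c, and at most 15.8 CPM elsewhere. For the 6 genes other than CP the intervals of 10c did not overlap those of 10a or 10b in either embryo. In share of UMIs, 10c with 25.7% of the cells of cluster 10 held 85.2% of its VCAM1, 78.0% of its SLC39A12, 74.1% of its SPON1, 74.1% of its SULF1, 69.8% of its SLC7A10 and 65.6% of its BCAN.

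CP rested on few cells here too. It stood at 356 and 182 CPM in 10a, 323 and 396 CPM in 10b, and 1215 and 453 CPM in 10c. The cell with 368 CP UMIs belonged to 10c, and without it 10c of embryo 1 stood at 41.1 CPM (12 UMIs). SULF1 in 10c of embryo 1 moved only from 399.8 to 336 CPM without the same cell. Of the thinned cells, 5.26% and 19.1% in 10c and 19.0% and 19.6% in 10b held CP. TTR was among the 10 leading genes of 10b, counted against the rest of cluster 10. It stood at 56.3 and 517 CPM in 10b, 67.4 and 69.6 in 10a and 57.6 and 40.5 in 10c, so it was raised in embryo 2 only. Of its 173 UMIs in 10b, 98 lay in 1 cell of embryo 2, which had 0 CP UMIs. All cells outside cluster 10 stood at 715 and 948 CPM of TTR. In the 10b cells with 0 TTR UMIs, 60 and 34 in number, CP stood at 355 and 372 CPM, close to its level in all of 10b. In 10a CP stood at 2424 and 61.8 CPM in the 12 and 20 cells with a TTR UMI, against 85.3 and 208 CPM in those without. The 2424 CPM rest on 104 CP UMIs, of which 80 lay in a cell with 1 TTR UMI and 24 in a cell with 13. The cell with 80 also carried much of the CP of 10a in embryo 1, which had 132 CP UMIs. In 10c it stood at 114 and 26.1 CPM in the 7 and 8 cells with TTR, against 1316 and 523 CPM. How CP and TTR go together was not tested. CP was measured in 10b, the sub-cluster where BCAN was at 0. Its order among the 3 differed between the embryos once the cell with 368 CP UMIs was left out.

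**Figure D4:**
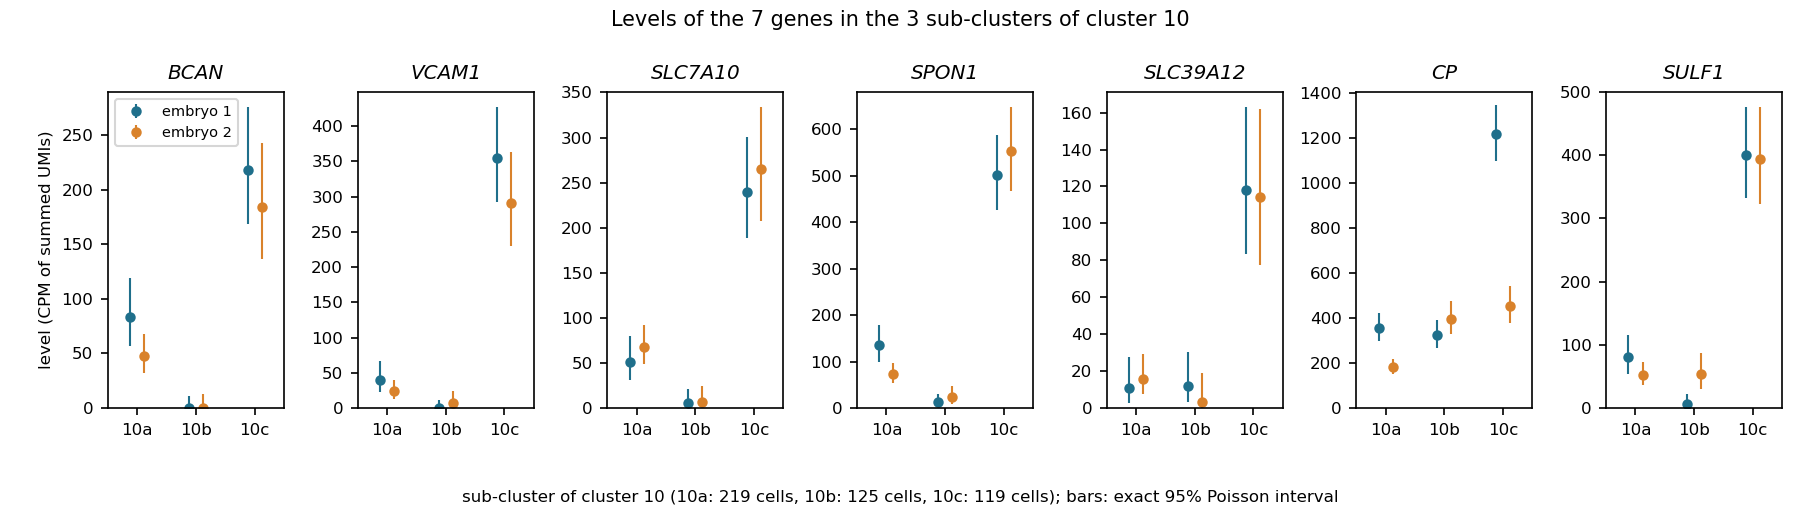
Levels of the 7 genes (y axis, CPM, a separate scale for each gene, starting at 0) in sub-clusters 10a, 10b and 10c (x axis), with a point per embryo and an exact 95% Poisson interval. All 7 genes are highest in 10c in both embryos, but the CP point of embryo 1 in 10c, at 1215 CPM, falls to 41.1 CPM without a single cell.

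Levels in cluster 10 also differed between cells with and without a UMI of MKI67 or TOP2A, markers of dividing cells. Cells with such a UMI numbered 86 and 72, or 38.7% and 29.9% of cluster 10. Erythroid-like cells held one in 30.5% and 20.2% of cases at a median of 12896 UMIs, so a UMI does not by itself mark a dividing cell. In the cells of cluster 10 with such a UMI, BCAN stood at 48.2 ± 11.7 CPM against 109 ± 37.3 CPM in the cells without. SPON1 stood at 114 ± 19.1 against 246 ± 50.6 CPM, SLC7A10 at 58.8 ± 10.9 against 123 ± 3.62, and SULF1 at 91.6 ± 41.6 against 178 ± 10.2. In each embryo these 4 genes and VCAM1 were lower in the cells with MKI67 or TOP2A. CP stood at 653 ± 380 against 278 ± 48.6 CPM, but the cell with 368 CP UMIs was among those with MKI67 or TOP2A, and without it the first value was 286 ± 139 CPM. SLC39A12 stood at 38.8 ± 10.8 against 39.6 ± 3.28 CPM. The cells with MKI67 or TOP2A were deeper, with a median of 4309 UMIs against 3866, and the part of depth in these values was not tested. They were also unevenly spread, at 43.2% of 10b, 32.4% of 10a and 27.7% of 10c. Within 10c, where 21 and 12 cells held such a UMI, SPON1 was still lower in them (429 and 364 against 539 and 607 CPM). There VCAM1 (324 and 331 against 371 and 279.7 CPM) and SULF1 (467 and 314 against 366 and 417 CPM) were lower in 1 embryo and higher in the other. SLC39A12 was higher in them within 10c, at 200.3 and 165 against 77.0 and 99.6 CPM.

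Compared with all other cells, cluster 10 had higher levels of the 7 genes by a median log2 fold of 5.22 ± 0.303 (SD, n = 2), on log2 of CPM + 1. The single folds ran from 4.38 for SLC39A12 to 5.56 for BCAN. The 7 genes were chosen on this contrast, so their count past 2 times, 7 of 7 in both embryos, is set beside the background of 8.4% (904 of 10759 genes with at least 20 UMIs in each embryo) without being read. Over all these genes the median log2 fold was 0.17. It was -0.21 with TMM factors and -0.09 with RLE factors, and the split of genes past 2 times moved from 60.8% higher to 37.5% and 44.9% higher, so folds near 1 on the log2 scale depend on the scaling. Clusters 2 and 4, together 3361 cells, had 7 and 6 radial glia markers, but cluster 4 is named dividing cells-like by 9 markers and is led by genes of mitosis such as PRC1 and TOP2A. Against the pair, called progenitor clusters here, the 7 genes had a median log2 fold of 4.57 ± 0.395, from 3.79 for SLC7A10 to 5.73 for CP, and the background of genes at least 2 times higher was 7.75%. The median was 4.86 against cluster 2 alone and 4.39 against cluster 4 alone, a comparison added after the data were seen. CP was the only 1 of the 7 whose fold was larger against the progenitor clusters than against all other cells.

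The same comparison described the pathways around each gene. Genes were counted as higher or lower when they differed at least 2 times in both embryos, among those with at least 20 UMIs in each. The background of genes lower in cluster 10 than in all other cells was 5.41%, and of those lower than in the progenitor clusters 3.74%. Of the 38 genes of an astroglial list, which shares most astrocyte markers and so helped to pick the cluster, 33 had a model, 27 had enough UMIs, and 24 were higher and 0 lower than in all other cells, with a median log2 fold of 2.16. Against the progenitor clusters 17 were higher and 0 lower. The highest fold was that of CLU, which encodes the chaperone clusterin, at 440.1 ± 118 CPM in cluster 10 and 15.7 CPM elsewhere (log2 fold 4.72). NTRK2, the receptor of brain-derived neurotrophic factor, followed at 121 ± 21.1 against 8.15 CPM (3.72). The lowest were GLUL, glutamine synthetase, with a log2 fold of -0.24 and APOE, the lipid carrier of glia and macrophages, with -0.59. APOE was nevertheless 3.20 higher on the log2 scale than in the progenitor clusters, and it was the leading gene of the microglia-like cluster 15.

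**Figure D5:**
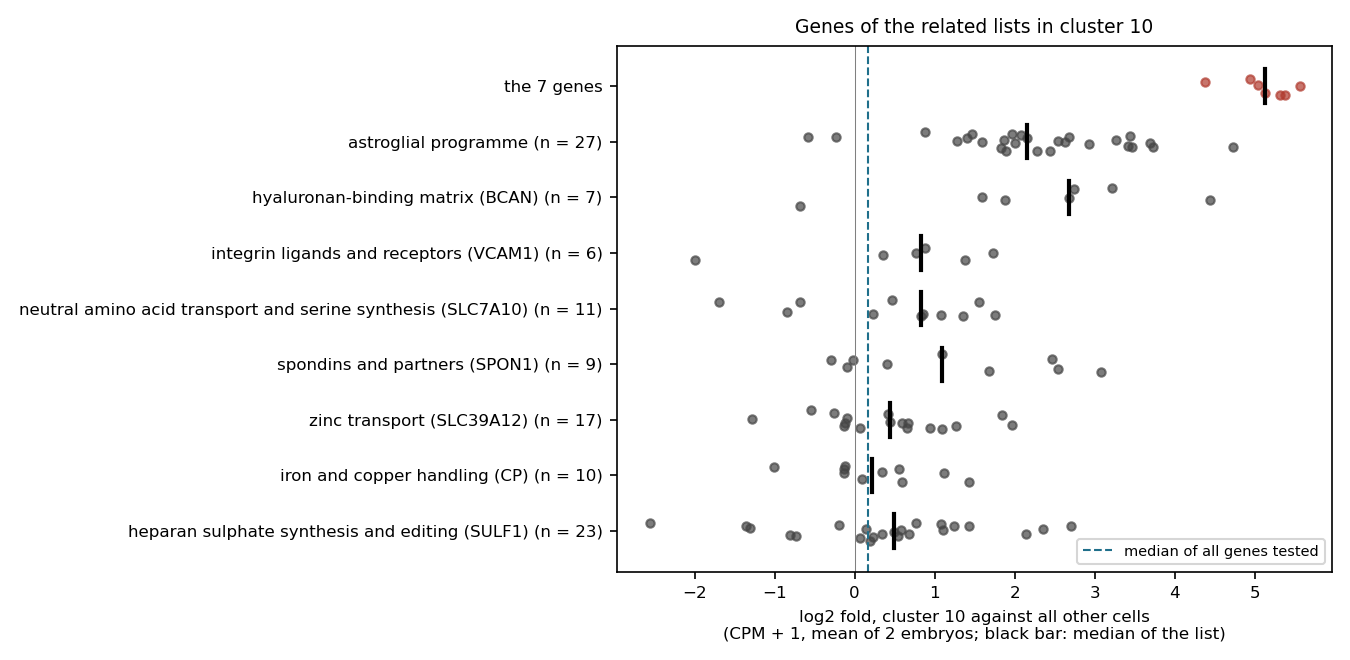
Log2 fold of cluster 10 against all other cells (x axis, CPM + 1, mean of the 2 embryos) for the 7 genes and for the genes of each related list with at least 20 UMIs in each embryo (y axis), with the median of each list as a black bar and the median of all genes, 0.17, as a dashed line. The lists of the hyaluronan-binding matrix and the astroglial programme have medians of 2.68 and 2.16, and that of iron and copper handling has 0.22.

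The matrix around brevican was high with it. Of 14 modelled genes of the hyaluronan-binding matrix list, 7 had enough UMIs. Of these, 6 were higher in cluster 10 than in all other cells and 0 lower, while 5 were higher than in the progenitor clusters. Among the 6 were TNC and PTPRZ1, which are also radial glia markers that gave the cluster its name. HAS2, the synthase that makes hyaluronan, stood at 68.9 ± 7.91 CPM in cluster 10 against 2.21 CPM in the other cells (log2 fold 4.44). TNC, the glycoprotein tenascin-C, stood at 92.0 ± 2.93 against 8.999 CPM (3.22). CSPG4, a proteoglycan of oligodendrocyte progenitors, stood at 7.10 ± 1.73 against 1.65 CPM (1.60). The exception was VCAN, or versican, the lectican of the early brain, at 37.4 ± 9.39 against 59.9 CPM (-0.68).

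The integrin partners of VCAM1 showed a mixed picture. Of 6 genes counted, 2 were higher in cluster 10 than in all other cells (1 with TMM or RLE factors) and 1 was lower. The higher ones were MSN, or moesin, which links membrane proteins to actin, at 92.4 ± 2.34 against 27.2 CPM (log2 fold 1.73), and ITGB1, the beta chain of the VCAM1 receptor, at 432 ± 8.26 against 166 CPM (1.38). ITGA4, its alpha chain, stood at 10.53 ± 3.12 against 5.14 CPM. ICAM2, an endothelial adhesion molecule, was the lower one, with 1 UMI in cluster 10 and 4.71 CPM in the other cells.

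Around the transporters, few genes stood out. Of 11 genes of neutral amino acid transport and serine synthesis, 3 were higher than in all other cells (1 with TMM or RLE factors) and 2 higher than in the progenitor clusters. SLC7A11 was the 1 gene counted as lower. SLC7A2, a transporter of cationic amino acids, had the highest log2 fold (1.75, 8.08 ± 0.345 CPM). SLC6A9, the glycine transporter GlyT1, came next (1.56). PHGDH, the enzyme that starts serine synthesis, was at 353 ± 70.8 CPM against 144 CPM in all other cells and 341 CPM in the progenitor clusters. SLC7A11, the cystine transporter, had 0 UMIs in cluster 10, which allows up to 2.94 and 2.497 CPM, and stood at 2.24 CPM in the other cells, so a lower level was not detectable at this depth. Of 17 genes of zinc transport, 2 were higher than in all other cells and 1 was lower. The higher ones were MT3, a brain metallothionein, at 946 ± 110.3 against 241 CPM (1.97), and SLC30A10, a metal exporter, at 8.30 ± 3.499 against 1.52 CPM (1.85). SLC39A8, at 0 UMIs in cluster 10, was the lower one and was at 1.44 CPM in the other cells, under the limit of a count of 0. Of 10 genes of iron and copper handling, 2 were higher (1 with TMM or RLE factors) and 0 lower, and 0 differed from the progenitor clusters at least 2 times in both embryos. They were HEPH, the ferroxidase hephaestin that is related to ceruloplasmin, at 5.93 ± 1.32 against 1.54 CPM (1.43), and ACO1, the iron-regulatory protein, at 69.3 ± 0.328 against 31.6 CPM (1.11). SLC40A1, the iron exporter ferroportin, stood at 0.490 ± 0.693 against 1.83 CPM.

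Around SPON1 and SULF1, secreted and matrix proteins were among the genes with the highest folds. Of 9 genes listed with the spondins, 4 were higher than in all other cells and 5 higher than in the progenitor clusters, and 0 were lower in either. They were led by RSPO2, an R-spondin that amplifies Wnt signalling, at 13.5 ± 8.56 against 0.575 CPM (log2 fold 3.07), and LRP2, the receptor megalin, at 25.7 ± 8.04 against 3.48 CPM (2.54). APP, the amyloid precursor protein, stood at 358 ± 36.0 against 270 CPM. BACE1, its beta-secretase, had the lowest fold (-0.29). Of 23 genes of heparan sulphate synthesis and editing, 4 were higher and 2 lower. SULF2, the paralogue of SULF1, had the highest fold, at 34.7 ± 9.08 against 4.43 CPM (2.71), and AGRN, the proteoglycan agrin, followed at 55.8 ± 23.6 against 9.64 CPM (2.36). GPC2, a glypican of young neurons, was the lowest at 2.38 ± 2.18 against 16.8 CPM (-2.56), and HS3ST1, a sulphotransferase, had 0 UMIs in cluster 10 and 1.56 CPM in the other cells, under the limit of a count of 0.

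The genes whose patterns over the clusters were most like each of the 7 fell into separate sets. Likeness was Pearson's r of log2 of CPM + 10 over the 16 clusters, computed per embryo for 7909 genes with at least 100 UMIs in each embryo and ranked by the lower r. The clusters share libraries and one of them dominates each pattern, so r is a description. BCAN was most like HAS2, ALDH9A1 and ANKFN1 (r of 0.871 or more in both embryos for HAS2). SPON1 was most like HAS2 (0.949 and 0.942), ANKFN1 and CRISPLD1. VCAM1 was most like CRISPLD1, S6A11 and NTRK2. SLC7A10 was most like ANKFN1, TNC and CRISPLD1. SLC39A12 was most like DYH7 (0.971 and 0.976), SPAG17 and CCDC146, and CP was most like DYH7, TSNAXIP1 and SPAG17. DYH7 is named after an axonemal dynein chain, and SPAG17 is a part of motile cilia. SULF1 was most like PLAAT1, DYH7 and an unnamed gene model. DYH7 stood at 31.4 ± 6.79 CPM in cluster 10, 54.9 CPM in cluster 14 and 2.52 CPM in all cells outside cluster 10. Among the 7 themselves, SLC39A12 and CP had r of 0.963 and 0.940, and BCAN and SPON1 0.929 and 0.927, whereas VCAM1 and SLC39A12 had 0.394 and 0.437.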

How the data were processed

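Droplet 3′ libraries (10x v3) of 2 embryonic tree shrew brains were analysed, 1 per embryo. The authors ran Cell Ranger 3.1.0 on the TS_2.0 assembly and deposited raw UMI counts per gene model and called cell barcode, without normalization. Models that share a name were summed. Cells with at least 200 genes were kept, scaled to 10000 UMIs, log-transformed and clustered over both embryos (2000 variable genes without the 7 genes and the related lists, 20 principal components, 20 neighbours, leidenalg 0.10.2 at a resolution of 0.5). The components and resolution are those of the study. The embryos were not integrated. Cluster names need at least 3 listed markers. Scrublet (scanpy 1.11.5) called 0 and 1 cells, so doublets were kept. Levels were taken from summed counts with numpy 2.4.6 and scipy 1.17.1 in Python 3.11.15. The limit of a count of 0 is 3 counts. Counting the cells of 1 library as replicates was avoided, so no test was run.

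The 7 genes, the markers and the related lists were chosen with earlier results of these data known. Named genes are the 7, the 3 most alike to each, up to 4 of each list with the highest and lowest folds, and the 5 leading genes of the clusters where one of the 7 was highest. ITGA4, APP, PHGDH, EDNRB, TTR, MKI67, TOP2A, PRC1, the leading genes of sub-clusters and the regional genes of the closing section were named after their values were seen. Forebrain patterning genes and 1 leading gene of a sub-cluster are not reported here. Alternatives varied the cell filter, doublets, haemoglobin, clustering, scaling (TMM and RLE factors from edgeR 4.0.16 in R 4.3.3), pseudocount, thinning and embryos. The fold rule and the Poisson intervals were tested on simulated data. Thinning was checked on measured cells, each of which came to the set total. Sequences and coordinates of the genes were not used here.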

Additional observations from a re-analysis of the deposited data

How the results depend on the processing

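The cluster with the most astrocyte markers had 367 to 487 cells over the alternatives. The summed level of the 7 genes (1101 CPM) lay between 796 and 1283 CPM over the alternatives that keep both embryos, within 1 SD of the embryos (321 CPM). It lay between 874 and 1327 CPM with 1 embryo left out. This SD is a wide bound, since that of CP alone was 221 CPM, and 30.6 CPM without the cell with 368 CP UMIs. The sum was lowest with TMM factors (796 CPM) and RLE factors (825 CPM). The median log2 fold of 5.22 was 4.77 with TMM factors, 4.89 with RLE factors and 3.32 with a pseudocount of 10 CPM, and 5.01 to 5.44 with 1 embryo left out. The share of cells with any of the 7 genes (49.9%, mean of the embryos, thinned to 2000 UMIs) was 56.8% with 30 components, 55.5% with the 7 genes and lists among the variable genes, 37.9% when thinned to 1000 UMIs and 59.6% without thinning, and 47.3% to 52.4% with 1 embryo left out. The number of the 7 highest in the cluster was 5 as reported, 5 with either embryo left out, and 7 with at least 500 or 1000 genes per cell, where 87 of 89 and 26 of 34 remaining cells of cluster 14 joined the astrocyte-marker cluster. The astroglial list gave 19 to 29 higher genes over all alternatives, and 24 to 27 with 1 embryo left out. Chosen after the data were seen, a resolution of 1.0 for the sub-clusters gave 63.5% of the member UMIs in the sub-cluster with the most astrocyte markers, against 64.3%. No fold of the 7 genes changed its sign in the 98 values computed. Against all other cells the median over all genes shifted by -0.38 (log2) with TMM factors, -0.26 with RLE factors and -0.22 without haemoglobin UMIs in the totals. Among the genes most like each of the 7, 10 of 21 were kept with a minimum of 20 UMIs and 11 of 21 with a pseudocount of 1 CPM. No paired analysis was possible because the results come from no test. With 2 embryos and few UMIs per gene, differences between clusters below about 3 UMIs are not detectable.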

Other observations

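Patterning genes of the midbrain, hindbrain and spinal cord, chosen after the clusters had been seen, were set beside the 7 genes. The 6 genes of midbrain and isthmus (OTX2, EN1, EN2, PAX2, PAX5 and PAX8) summed to 65.5 ± 19.6 CPM in cluster 10 and 12.9 ± 1.52 CPM in the progenitor clusters 2 (radial glia-like) and 4 (dividing cells-like). The 16 modelled genes of hindbrain and spinal cord, GBX2 and HOX genes, summed to 54.9 CPM in embryo 1 and 19.1 CPM in embryo 2 in cluster 10, against 3.36 and 0.624 CPM in clusters 2 and 4.

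Sub-cluster 10c was where the 7 genes were highest, CP in embryo 1 through a single cell and in embryo 2 unresolved from 10b. There the hindbrain and spinal cord genes had 48 UMIs in embryo 1 and 10 in embryo 2 (154 and 36.8 CPM). Of the 48, 19 were of HOXB7, which had 0 UMIs in 10c of embryo 2. The midbrain and isthmus genes of 10c stood at 92.8 and 36.8 CPM. How far brain region and the levels of the 7 genes go together was not tested.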
